A study of Mus musculus with 8 samples.

Results

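Accessible chromatin was examined at the 10 genes of the Myc, Max and Mxd family (Myc, Mycn, Mycl, Max, Mnt, Mga, Mxi1, Mxd1, Mxd3 and Mxd4) in mouse embryonic stem cells with and without induced pausing. A peak belonged to the family when its centre lay inside a member gene or within 50 kb of it on GRCm38. For Myc the limit was 200 kb, which takes in the neighbouring non-coding gene Pvt1. This rule found 219 of the 134407 peaks of the table, and it used position alone. Of these, 124 lay inside a member gene or had a member as their nearest protein-coding gene, and they are called family peaks here. The remaining 95 were nearer to, or inside, another protein-coding gene and are kept apart. In all, 212 of the 219 peaks had a mean value of at least 10 and entered the test, 119 of them family peaks; the other 7 had mean values of 6.04 to 9.73.

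The study profiled wild-type E14 cells, an established mouse embryonic stem cell line, by ATAC-seq, a method that reads open chromatin from the places where the enzyme Tn5 can cut and tag the DNA. All cells grew on gelatin in serum with the cytokine LIF. The 4 control samples were kept without pausing, and the 4 paused samples had INK128, which blocks mTOR kinase activity, at 200 nM for 24 h. The comparison asks how accessibility differed between the paused and control states. As a model it is limited to 1 cell line, 1 dose and 1 time. The labels do not say whether the samples came from separate cultures, so p-values measure the spread between these libraries, which may be technical. In such bulk samples, fewer cells with an open site and less opening per cell cannot be told apart.

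Myc, Mycn and Mycl are transcription factors that drive growth and proliferation genes. They bind DNA only as dimers with Max, at the E-box sequence CACGTG and at variants such as CACGCG. Mxd1, Mxi1 (also called Mxd2), Mxd3, Mxd4, Mnt and Mga also dimerise with Max and occupy the same sites. The Mxd proteins and Mnt recruit Sin3 corepressors and oppose Myc, while Mga joins Max in a Polycomb-type repressive complex. In embryonic stem cells Myc and Mycn support self-renewal, and loss of both is known to put such cells into a paused, dormant state.

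Several members carry E-boxes beside their own start sites. The 300-base RefSeq promoters (GRCm38.p6, 250 bases before the start site) were searched on both strands for CACGTG and CACGCG, which do not overlap each other in any window shown. The table had 11 promoters for 9 members and none for Myc. CACGTG lay in 3 of the 11, against 7.15% of all 32851 promoters, and CACGCG in 2 of the 11, against 9.27%. The 5 matches are shown 5′ to 3′ on the gene's strand, in 30 bases each, with the motif in capitals. They show which members carry the sequence that their own proteins bind. A match is a run of letters and not evidence of binding.
Mxd4, chr5:34187924-34187929: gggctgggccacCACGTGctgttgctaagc
Mnt, chr11:74830801-74830806: ccccacccaagcCACGTGtgcgcgcgcggt
Max, chr12:76962246-76962251: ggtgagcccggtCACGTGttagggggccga
Mycl, chr4:122995911-122995916: ccaagccccgggCACGCGacgagatataaa
Mga, chr2:119897207-119897212: agctggtaggagCGCGTGcgcagtgacgtg

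In Mga the letters read as the reverse complement of CACGCG. The motif began 219 bases before the start site in Mxd4, 123 in Mnt, 3 in Max, 20 in Mycl and 21 in Mga. Only the Mxd4 match lay inside the bounds of a peak, the one at the gene's start. All peaks have the same fixed width, so a match outside these bounds may still lie in open chromatin. The Mga match ended at 119897212 and the Max match at 76962251. Both lay close to the lower-coordinate ends of their genes' start peaks, at 119897229 for Mga and 76962309 for Max. The 250 bases before the Mxd4 start (minus strand) are given because the peak at 34187829 to 34188029 covers 132 of them, E-box included.
Mxd4 upstream, chr5:34187711-34187960: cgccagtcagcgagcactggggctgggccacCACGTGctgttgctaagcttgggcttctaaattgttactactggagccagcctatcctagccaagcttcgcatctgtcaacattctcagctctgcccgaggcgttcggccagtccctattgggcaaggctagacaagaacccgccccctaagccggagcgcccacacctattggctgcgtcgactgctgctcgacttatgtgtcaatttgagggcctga

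The Max start peak covers all 175 bases that lie before the Max gene in the same kind of window (minus strand), and these hold neither motif.
Max upstream, chr12:76962324-76962498: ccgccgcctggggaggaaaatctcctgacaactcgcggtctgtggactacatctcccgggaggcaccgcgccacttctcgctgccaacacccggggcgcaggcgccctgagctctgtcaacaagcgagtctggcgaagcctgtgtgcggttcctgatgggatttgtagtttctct

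The deposited values are reads per peak divided by 1 factor per library, called values below. The libraries held 4434037 to 21161767 reads in peaks, control replicate 1 being the deepest, and 3 reads, the limit that a count of 0 allows, came to values of 1.04 to 5.08. With the deposited factors the median peak was 0.10 higher in paused cells on the log2 scale, and the shift ran from -0.20 in the weakest 10% of peaks to 0.20 in the strongest 10%. After edgeR's TMM rescaling, which sets libraries to a common level over most peaks, the median was -0.01. Higher and lower below mean above and below 0 under the scaling named, and distances from the median of 0.10 are given where they bear on a count. All 8 embryonic stem cell markers examined had a peak within 2 kb of a gene end, Pou5f1 with a value of 344. So did 11 of 13 markers of other cell types, with Gata4 and Pax6 having none. The strongest such peak had a median value of 220 for the stem cell markers and 123 for the others, so this check does not by itself settle the cell type.

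Single peaks rose near Myc and Mycn and fell near Max and inside Mxi1 in paused cells. Of the 119 family peaks tested, 11 passed the test (limma-trend, Benjamini-Hochberg adjusted p under 0.05 over all peaks), 7 higher and 4 lower. That is 9.24%, below the 13.9% of all 127402 tested peaks that passed, of which 11% were higher and 2.91% lower. The 7 higher peaks belonged to Myc (5) and Mycn (2), and the 4 lower ones to Mxi1 (3) and Max (1). The median log2 difference of family peaks was -0.04, with 57 above 0 and 62 below, against 0.10 for all peaks. Read against that 0.10, 42 family peaks were above and 77 below. Without paused replicate 3 the count was 7, and without any other 1 library it was 8 to 14. The 4 paused and 4 control values did not overlap at 18 family peaks, 6 with higher and 12 with lower paused values. Over all peaks the share was 17.4%, with 13% higher and 4.36% lower, so the family's split ran the other way from that of its 7 higher and 4 lower calls. By the FDR of the authors' deposited table, 9 of the 11 were under 0.05, the other 2 being Mxi1 peaks at 0.054 and 0.051.

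The balance of higher and lower calls depended on scaling. With edgeR's quasi-likelihood test after TMM, 17 family peaks passed, 5 higher and 12 lower, where 7.13% of all peaks passed as higher and 5.54% as lower. Of the 11 calls above, 9 were among those 17. DESeq2 called 4 family peaks, all among the 11, against 4.55% of all peaks. After the loess correction 10 passed, 6 of them among the 11, against 8.61% of all peaks. The 4 that DESeq2 called were the peak 20.6 kb from Myc, the peak 19.5 kb before Max and a pair of peaks inside Mxi1.

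**Figure D1:**
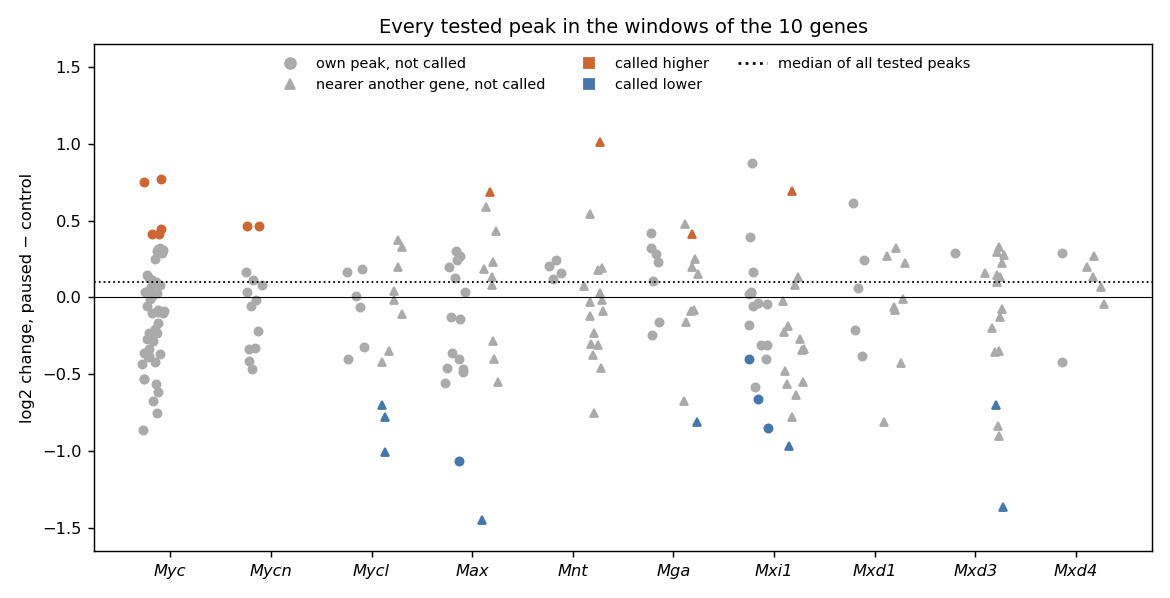
Log2 difference (paused minus control) of every tested peak of each member gene, on the vertical axis, 1 column per gene, with circles for family peaks, triangles for peaks nearer another gene, orange for called higher and blue for called lower. The dotted line is the median of all tested peaks (0.10). Called circles lie above 0 for Myc and Mycn and below 0 for Max and Mxi1.

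Myc had 50 family peaks, the most of the 10 genes, of which 36 lay inside Pvt1. Pvt1 (chromosome 15, 62037986 to 62260215) starts 47625 bp beyond the end of Myc (61985341 to 61990361), and its body is known for enhancers of Myc. Of 49 tested Myc peaks, 5 were higher (10.2%, against 11% of all peaks) and none lower with limma-trend. An unadjusted p under 0.05 was found for 15, compared with 28.7% of all peaks, a share that stands behind each such count below. Relative to the all-peak median, 15 Myc peaks were above and 34 below. EdgeR after TMM gave 4 higher and 5 lower, with limma-trend after TMM 2 were higher and 3 lower, and with DESeq2 1 was higher and none lower.

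The peak at 62010814 to 62011014 lay 20553 bp beyond the end of Myc, between it and Pvt1. Its values were 112, 133, 99.9 and 119 in control replicates 1 to 4 and 191, 188, 220 and 192 in the paused ones. Every paused library stood above every control library. The mean went from 116 ± 13.7 to 198 ± 15.1 (SD, n = 4 each), a log2 difference of 0.77 ± 0.12 (SE, limma-trend adjusted p = 3.18e-05). It passed in all 17 alternative fits and left-out libraries, with differences from 0.57 to 0.84 and adjusted p from 2.57e-06 to 0.0011. The lowest of these differences came with a loess correction for peak strength.

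The only peak inside Myc, at 61985519 to 61985719, had its centre 278 bp from the gene's lower-coordinate end. It held 154, 165, 169 and 163 in control libraries and 205.3, 191, 254 and 220 in paused ones. The groups did not overlap, and the mean rose from 163 ± 6.51 to 218 ± 27.3 (SD, n = 4 each). The log2 difference was 0.41 ± 0.12 (SE, limma-trend adjusted p = 0.0137), and 0.32 with edgeR after TMM (adjusted p = 0.0483). The call was lost with limma-trend after TMM (0.30, adjusted p = 0.0752), after loess (0.20, 0.223), with DESeq2 (0.32, 0.133) and without paused replicate 3 (0.33, 0.0606).

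Of the other 8 peaks between Myc and Pvt1, 2 rose. The one at 62032184 to 62032384, 41923 bp from Myc, held 27.0, 23.9, 32.2 and 25.0 in control libraries. In paused libraries it held 48.5, 59.9, 49.7 and 30.5. Paused replicate 4 fell inside the control range, so the groups overlapped. The log2 difference was 0.75 ± 0.21 (SE, limma-trend adjusted p = 0.0118), and the call was lost with DESeq2 (0.69, adjusted p = 0.101) and without paused replicate 2 (0.62, 0.0652). The peak at 61994908 to 61995108, 4647 bp from Myc, was the fifth called Myc peak and falls outside the naming rule, so it was chosen after its values were seen. Its log2 difference was 0.41 ± 0.13 (SE, limma-trend adjusted p = 0.030), and the groups did not overlap. With edgeR after TMM it missed the threshold (0.34, adjusted p = 0.0693), as it did after loess (0.22, 0.308).

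Inside Pvt1, 1 of 35 tested peaks was called. It lay at 62098827 to 62099027, 108566 bp from Myc, and held 105, 100.3, 110.1 and 104 in control libraries and 147, 153, 132 and 143 in paused ones. Each paused value stood above each control value. The log2 difference was 0.45 ± 0.12 (SE, limma-trend adjusted p = 0.0112), and 0.35 with edgeR after TMM (adjusted p = 0.0447). The call was lost with limma-trend after TMM (0.34, 0.0637), after loess (0.25, 0.202) and with DESeq2 (0.35, 0.153).

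The strongest Myc peak, also in Pvt1, lay at 62092865 to 62093065. It ranged from 314 to 428 in control libraries and from 376 to 470 in paused ones, and these ranges overlapped. Its log2 difference of 0.25 ± 0.11 (SE) did not pass (limma-trend adjusted p = 0.124).

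By distance from Myc, the called peaks were mostly near the gene, a difference that was not tested. Of 13 tested peaks within 50 kb, 4 were called higher and the median log2 difference was 0.04. Of 36 tested peaks between 50 and 200 kb, 1 was called and the median was -0.10. Within Pvt1, 14 differences were above 0 and 21 below. On the lower-coordinate side of Myc there were 4 peaks, none called, with a median of -0.24. The 5 Myc peaks that passed as lower with edgeR after TMM had control means of 13.3 to 94.8. They lay at 61991827 (-0.68) and 62002605 (-0.79), on either side of the called one at 61994908, and inside Pvt1 at 62067479 (-0.67), 62087713 (-0.45) and 62105023 (-1.12).

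**Figure D2:**
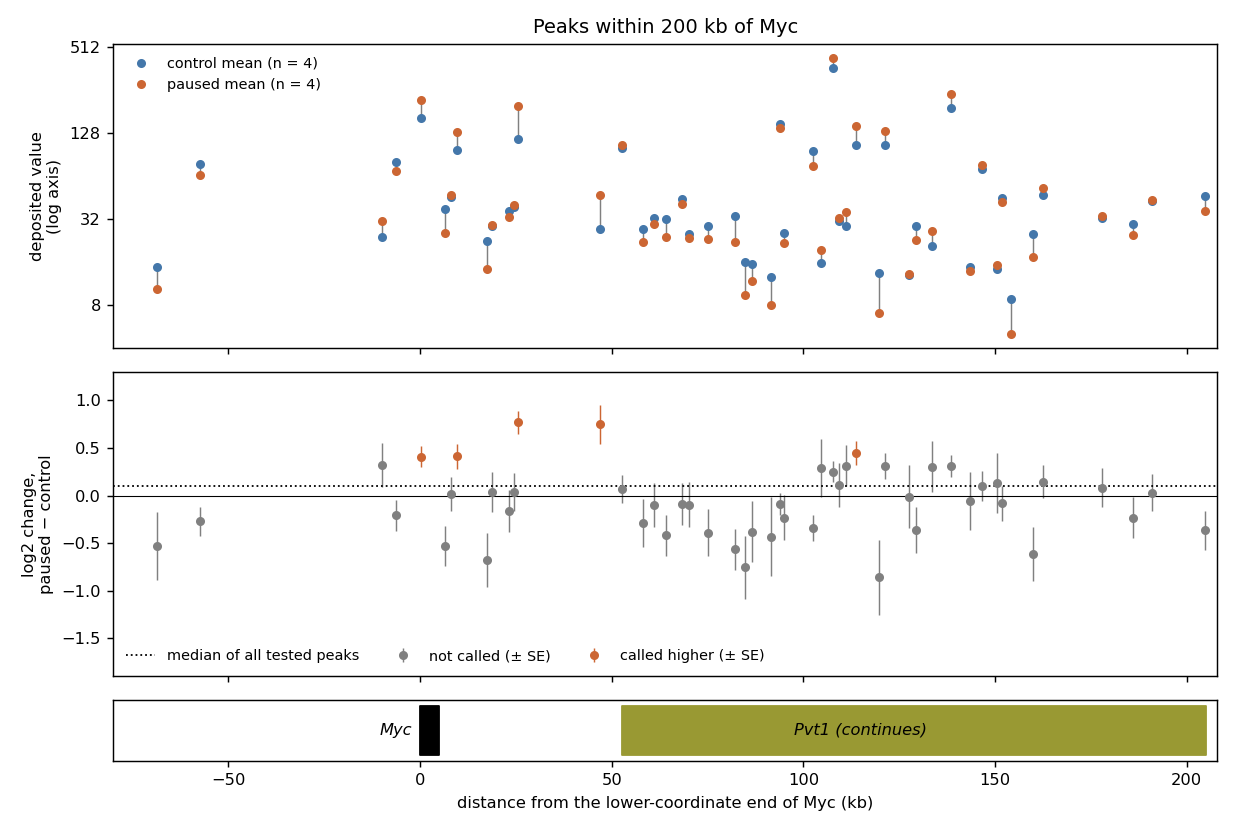
Peaks of the Myc locus by distance in kb from the lower-coordinate end of Myc, which is 5021 bp long, with group mean values on a log axis (top), log2 differences with SE (middle) and the spans of Myc and Pvt1 (bottom). The 5 called peaks are in orange, 1 of them inside Pvt1, where the median difference was -0.09.

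Mycn, the Myc paralogue prominent in embryonic cells, rose at 2 of its 13 peaks (15.4%, against 11% of all peaks). The called peaks were strong, with mean values of 236 and 142. Of all tested peaks with mean values of 86.6 to 149, 21.3% were called higher, and of stronger ones 18%. No peak lay within 1 kb of the Mycn start site. The nearer called peak lay on chromosome 12 at 12943364 to 12943564, 1628 bp before that site. Its values were 190, 158, 202 and 249.8 in control libraries and 268, 265, 267 and 289 in paused ones. The lowest paused value exceeded the highest control value. The mean went from 199.9 ± 38.2 to 272 ± 11.5 (SD, n = 4 each), with a log2 difference of 0.46 ± 0.12 (SE, limma-trend adjusted p = 0.00679). The call held without any 1 library and with edgeR after TMM (0.36, adjusted p = 0.0267), and was lost after loess (0.25, 0.136) and with DESeq2 (0.35, 0.088).

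The second Mycn peak, at 12987489 to 12987689, lay 45753 bp before the start site inside the non-coding gene Gm35208. It held 124, 107, 98.2 and 147 in control libraries and 181, 139, 189 and 148 in paused ones. Control replicate 4 stood above paused replicate 2, so the groups overlapped. The log2 difference was 0.46 ± 0.13 (SE, limma-trend adjusted p = 0.0160). The call was lost with edgeR after TMM (0.35, adjusted p = 0.0548) and with limma-trend after TMM (0.36, 0.0747). So it was after loess (0.26, 0.21) and with DESeq2 (0.35, 0.179). The call was also lost without control replicate 3 (0.38, 0.0753), paused replicate 1 (0.41, 0.0567) or paused replicate 3 (0.39, 0.0605). Other Mycn peaks ranged from -0.46 to 0.17, and the strongest, at 12927205 to 12927405 with a mean value of 251, differed by 0.08 ± 0.11 (SE, limma-trend adjusted p = 0.678).

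Mycl, the third Myc paralogue, had 6 peaks and none passed with limma-trend, edgeR after TMM or DESeq2, while 1 had an unadjusted p under 0.05. That peak lay on chromosome 4 at 122988016 to 122988216. It held 44.9, 51.4, 52.5 and 44.1 in control libraries and 34.6, 48.9, 38.8 and 25.8 in paused ones, and the groups overlapped. Its log2 difference was -0.40 ± 0.19 (SE, limma-trend adjusted p = 0.151).

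Max is the shared dimer partner of the other members. Its single called peak lay on chromosome 12 at 76981601 to 76981801, 19453 bp before the start site and inside the non-coding gene Gm35041. The values were 47.0, 39.4, 47.4 and 60.3 in control libraries and 23.1, 29.97, 15.5 and 23.4 in paused ones. Every paused library stood below every control library, with 10 to 136 reads behind each value. The mean fell from 48.5 ± 8.64 to 23.0 ± 5.91 (SD, n = 4 each), a log2 difference of -1.06 ± 0.21 (SE, limma-trend adjusted p = 0.000631). It passed in all 16 alternatives that kept it, with differences from -1.20 to -0.90, and was the largest fall among family peaks in the limma-trend fit.

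The other 14 tested Max peaks ranged from -0.56 to 0.30 on the log2 scale. With edgeR after TMM a second one was lower, at 76930279 to 76930479, 6890 bp beyond the far end of Max (-0.60, adjusted p = 0.0398), where the limma-trend difference was -0.46 (adjusted p = 0.119). Both lie away from the start site, where the strong start peak at 76962309 had 291 to 414 in control libraries and 364 to 442 in paused ones. That start peak differed by 0.20 ± 0.11 (SE, limma-trend adjusted p = 0.219).

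Mxi1, a Max partner that recruits Sin3, had 17 family peaks, 14 of them inside the gene (chromosome 19, 53310128 to 53373293). Of these 17, 3 fell (17.6%, against 2.91% of all peaks) and none rose with limma-trend, and 6 had an unadjusted p under 0.05. With edgeR after TMM 4 fell and none rose, the fourth being the peak at 53369836 (-0.39, adjusted p = 0.0271). After loess the same 4 fell and a weak peak at 53318743, with a mean value of 10.4, rose (1.14, adjusted p = 0.0499992). All 3 called peaks lay within the gene, between or beyond its 3 RefSeq start sites at 53310506, 53329413 and 53329695, and distances below are from the nearest of these. Those at 53321353 and 53325680 also lay inside the non-coding gene Gm30541. With peaks inside non-coding genes left out, an alternative chosen after seeing the data, 1 lower family call remained of the 4.

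The peak at 53321353 to 53321553, 7960 bp before a start site, held 38.4, 39.4, 27.1 and 35.3 in control libraries. In paused libraries it held 24.2, 12.6, 23.3 and 17.6, all below the lowest control value. The mean went from 35.0 ± 5.58 to 19.4 ± 5.40 (SD, n = 4 each), with a log2 difference of -0.85 ± 0.24 (SE, limma-trend adjusted p = 0.0131). It passed with edgeR after TMM (-0.99, adjusted p = 0.00167) and DESeq2 (-0.97, 0.0295). Without control replicate 1 (-0.80, 0.0510) or paused replicate 2 (-0.67, 0.0587) it just missed.

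The peak at 53325680 to 53325880, 3633 bp before a start site, held 122, 103, 144 and 116 in control libraries and 87.7, 82.0, 91.5 and 104 in paused ones. Paused replicate 4 overlapped control replicate 2. The log2 difference was -0.40 ± 0.13 (SE, limma-trend adjusted p = 0.0403), and it was larger after TMM with edgeR (-0.50, adjusted p = 0.00622) and after loess (-0.60, 0.00292). This call was lost in 6 of the 8 fits with 1 library left out. The adjusted p was 0.0909 without control replicate 1, 0.156 without control replicate 3 and 0.0603 without control replicate 4. It was 0.0778 without paused replicate 1, 0.110 without paused replicate 2 and 0.0579 without paused replicate 3.

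The third Mxi1 peak, at 53363066 to 53363266, lay 33471 bp after the last start site. It held 46.3, 52.6, 45.7 and 55.8 in control libraries and 25.4, 37.9, 23.3 and 42.2 in paused ones. The groups did not overlap, and the log2 difference was -0.66 ± 0.20 (SE, limma-trend adjusted p = 0.0197). It passed with edgeR after TMM (-0.71, adjusted p = 0.00779) and was lost with DESeq2 (-0.73, 0.0578). It was also lost without control replicate 4 (-0.61, 0.0628), paused replicate 1 (-0.57, 0.0656) or paused replicate 3 (-0.53, 0.0715). The strongest Mxi1 peak, at 53314193 to 53314393, held 195 to 260 in control and 218 to 266 in paused libraries and differed by 0.02 ± 0.11 (SE, limma-trend adjusted p = 0.916), with -0.09 after TMM with edgeR.

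**Figure D3:**
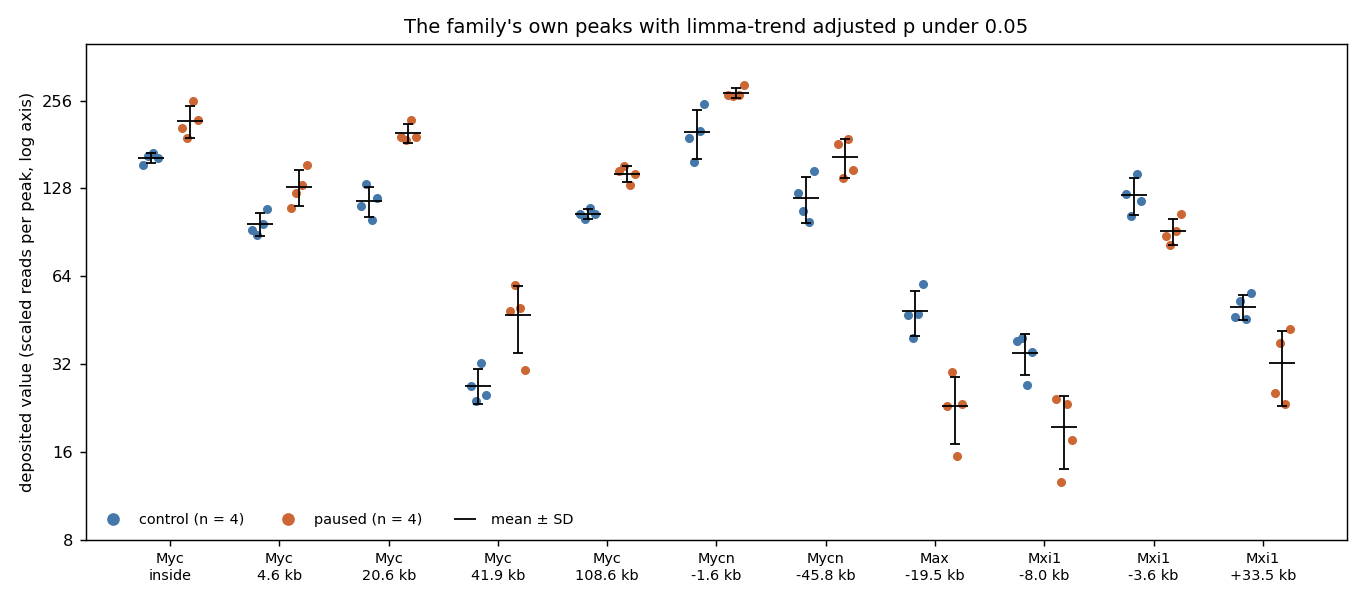
Value of each family peak that passed the test in the 4 control and 4 paused libraries on a log axis, with the group mean and SD. Distances are from the end of Myc or from the nearest start site. The groups separate at the peaks 20.6 kb from Myc and 19.5 kb before Max, and overlap at the fourth Myc, the second Mycn and the second Mxi1 peak from the left.

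Mnt and Mga, the larger Max partners, had no called family peak. Mnt had 4 peaks with differences of 0.12 to 0.24, and 1 had an unadjusted p under 0.05. Mga had 7 tested peaks with a median of 0.23, and 2 had an unadjusted p under 0.05. With edgeR after TMM and with DESeq2 none of the peaks of Mnt or Mga passed. The Mga peak with the smallest p lay on chromosome 2 at 119857514 to 119857714, 14889 bp before the gene. It held 94.7, 99.1, 71.1 and 126 in control libraries and 105, 137, 118 and 162 in paused ones, with overlap. Its log2 difference was 0.42 ± 0.15 (SE, limma-trend adjusted p = 0.0513), and it passed without control replicate 4 (0.55, 0.0170), paused replicate 1 (0.52, 0.0282) or paused replicate 3 (0.46, 0.0485). The RefSeq start of Mga lies well inside the gene's span.

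The Mxd genes encode Sin3-recruiting partners of Max. Mxd1 had 5 family peaks, Mxd3 1 and Mxd4 2 tested, and none was called with limma-trend or DESeq2. An unadjusted p under 0.05 was found for 1, 1 and 2 of them. The peak beyond the far end of Mxd4, on chromosome 5 at 34175394 to 34175594, held 87.5, 60.9, 72.8 and 80.8 in control libraries and 70.4, 59.9, 45.0 and 50.4 in paused ones. The groups overlapped, and the log2 difference of -0.42 ± 0.16 (SE) missed the threshold (limma-trend adjusted p = 0.0734). It passed with edgeR after TMM (-0.56, adjusted p = 0.0101) and without control replicate 2 (-0.52, 0.0388) or paused replicate 1 (-0.53, 0.0358).

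The start peaks of the family, 1 for each gene but Mycn, moved little and mostly upward. For each gene this was the strongest peak within 1 kb of a RefSeq start, and for Myc within 1 kb of a gene end. All 9 were strong, with mean values of 174 to 536, above 92.7% to 99.99% of all peaks, tested or not. Only that of Myc was called, against 12.3% of the 13903 tested peaks near a RefSeq start (11.3% higher and 1.06% lower). All 9 differences were above 0 with the deposited factors, with a median of 0.24 against 0.18 for all such peaks, and 7 of the 9 were above that 0.18. After TMM with edgeR 8 of 9 were above 0 and after loess 5 of 9, so the common upward direction changed with scaling. None was called without paused replicate 3, 2 without control replicate 2 or control replicate 3, and 4 without paused replicate 1.

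The start peak of Mnt, the strongest, held 432, 483, 533 and 514 in control libraries and 509.9, 543, 647 and 628 in paused ones. Mxd4, whose E-box lies in its start peak, had 341, 299, 472 and 438 in control libraries and 359, 494, 534 and 499 in paused ones. Mxd1 had 314, 329.6, 371 and 360.03 in control libraries and 353, 407, 456 and 416 in paused ones. In each of these genes the groups overlapped. The log2 differences were 0.24 ± 0.10 for Mnt, 0.29 ± 0.12 for Mxd4 and 0.24 ± 0.10 for Mxd1 (SE, limma-trend adjusted p = 0.101, 0.108 and 0.109). The Mxd4 start peak passed without control replicate 3 (0.39, 0.0452) or paused replicate 1 (0.42, 0.0234), and that of Mxd1 without paused replicate 1 (0.31, 0.0499).

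The Mxd3 start peak, the gene's only family peak, had 200.9, 269.9, 232 and 235 in control libraries and 247, 293, 282 and 321 in paused ones. It differed by 0.29 ± 0.11 (SE, limma-trend adjusted p = 0.0814) and passed without control replicate 2 (0.36, 0.0353) or paused replicate 1 (0.36, 0.0430). The Mycl start peak ranged from 194 to 252 in control and 223 to 292 in paused libraries, a difference of 0.19 ± 0.11 (SE, limma-trend adjusted p = 0.280). That of Mga ranged from 234 to 279 and from 246 to 282, a difference of 0.11 ± 0.11 (SE, limma-trend adjusted p = 0.530). The Mxi1 start peak, at 53310366, had 161 to 191 in control and 158 to 193 in paused libraries and the smallest difference, 0.03 ± 0.12 (SE, limma-trend adjusted p = 0.889). It was -0.06 with edgeR after TMM.

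**Figure D4:**
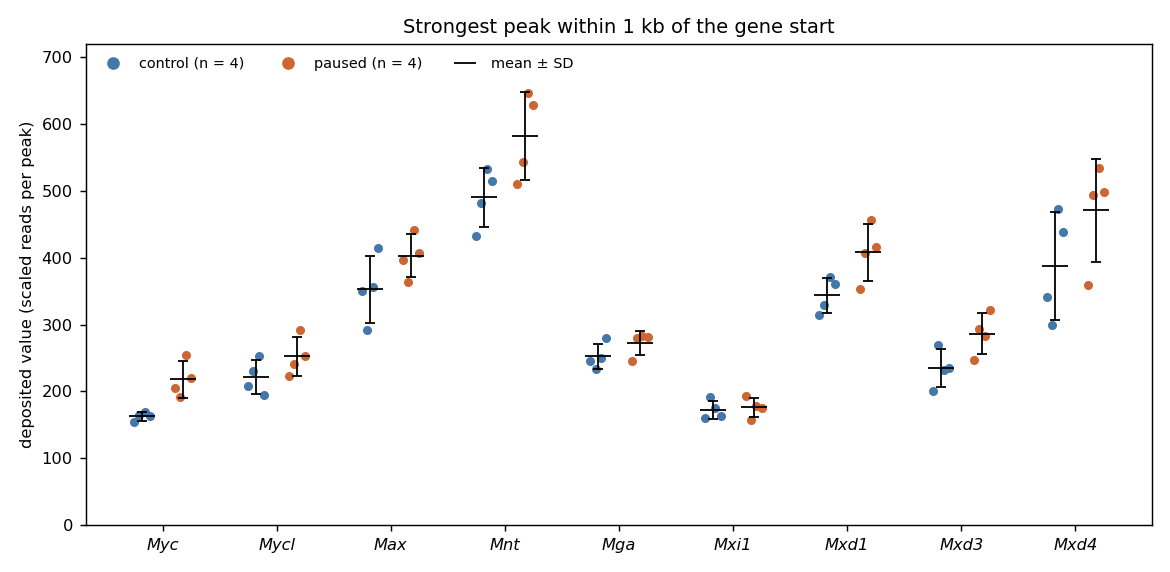
Value of the strongest peak within 1 kb of the gene start (for Myc, of a gene end) in the 4 control and 4 paused libraries for 9 genes, with group mean and SD. Only the Myc points separate by group, and the Mnt and Mxd4 peaks stand highest.

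Among the 93 tested peaks of the same windows that were nearer to another gene, 12 passed (12.9%, against 13.9% of all peaks), 4 higher and 8 lower, and their median was -0.06. Around Mycl the lower peaks stood beside its neighbours. A peak on chromosome 4 at 122955472 to 122955672, inside the lipid transporter gene Mfsd2a, held 178, 167, 191 and 209 in control libraries and 114, 103, 143 and 101 in paused ones. The groups did not overlap, and the log2 difference was -0.70 ± 0.13 (SE, limma-trend adjusted p = 0.000207). A peak at 123014024 to 123014224, 2420 bp from the tRNA-modifying enzyme gene Trit1, held 94.0, 112, 124 and 126 in control libraries and 73.8, 67.8, 62.1 and 59.8 in paused ones. It also separated the groups, with -0.78 ± 0.14 (SE, limma-trend adjusted p = 0.000201), and both calls held in all alternatives. Another Trit1 peak, inside the gene at 123019006, was chosen after its values were seen (-1.01, limma-trend adjusted p = 0.0180).

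In the Mxd3 window a peak on chromosome 13 at 55342268 to 55342468, 1465 bp from Lman2, fell from 84.3 ± 7.33 to 51.9 ± 8.33 (SD, n = 4 each). The groups did not overlap, the log2 difference was -0.70 ± 0.15 (SE, limma-trend adjusted p = 0.0018), and the call held in all alternatives. A weak peak inside Rgs14 was lower (-1.37, limma-trend adjusted p = 0.0161), with 1 to 58 reads per library, and was lost without paused replicate 2 (-0.83, 0.0868), after loess (-1.19, 0.0530) and with DESeq2 (-1.24, 0.0627). In the Mnt window a weak peak inside Sgsm2, at 74855472 to 74855672, rose from 17.1 ± 5.37 to 34.3 ± 3.48 (SD, n = 4 each). Its log2 difference was 1.01 ± 0.24 (SE, limma-trend adjusted p = 0.00397), and it held in all alternatives that kept it.

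The Max window held a pair of called peaks inside Fntb. The one at 76919945 rose by 0.69 (limma-trend adjusted p = 0.00662) and was lost with DESeq2 (0.57, 0.123). The one at 76899671 was lower (-1.45, limma-trend adjusted p = 0.0475), with no read in paused replicate 2, and it was lost without that library (-0.60, 0.264) and without any 1 control library (adjusted p from 0.0753 to 0.118). It was also lost with a pseudocount of 0.1 (-2.29, 0.0598), after loess (-1.14, 0.166), with edgeR after TMM (-1.04, 0.0512) or on the deposited factors (-0.93, 0.0702), and with DESeq2 (-1.09, 0.177). Beside Mxi1, a peak 12355 bp from Smndc1 rose by 0.69 (limma-trend adjusted p = 0.00474) and was lost with DESeq2 (0.59, 0.0843). A weak one inside Smndc1 was lower (-0.97, limma-trend adjusted p = 0.0328), and was lost without control replicate 3 (0.129), control replicate 4 (0.0792), paused replicate 1 (0.0598) or paused replicate 3 (0.0929), after loess (0.0776) and with DESeq2 (0.103). Beside Mga, a peak nearest Tyro3 rose by 0.41 (limma-trend adjusted p = 0.0167) and missed without control replicate 3 (0.0547) or paused replicate 2 (0.0544). It also missed with limma-trend after TMM (0.30, 0.0853), after loess (0.21, 0.265), with edgeR after TMM (0.30, 0.0791) and with DESeq2 (0.30, 0.198). A peak inside Mapkbp1 was lower (-0.81, limma-trend adjusted p = 0.0383) and missed without any 1 of the control libraries or paused replicates 1 and 2 (0.0579 to 0.111), after loess (0.0610) and with DESeq2 (0.107).

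Summed over all peaks inside each gene or within 50 kb, the 10 genes moved against a background in which 50.8% of 20225 protein-coding genes passed, 50% higher and 0.747% lower. With the deposited factors the median gene was 0.15 higher, and after TMM with edgeR 10.6% passed (5.81% higher, 4.83% lower) with a median of -0.00. Such sums share peaks between neighbouring genes. The Myc sum was 772, 853, 779 and 857 in control libraries and 909, 962, 1055 and 1015 in paused ones. These did not overlap, and the log2 difference was 0.27 ± 0.06 (SE, limma-trend adjusted p = 0.00104), higher than in 85.8% of genes. After TMM with edgeR it was 0.13 (adjusted p = 0.101).

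Mycl and Mxi1 had the lowest differences of the 10 sums. The Mycl sum was 1282 to 1458 in control and 1193 to 1361 in paused libraries, with overlap. Its log2 difference was -0.14 ± 0.05 (SE, limma-trend adjusted p = 0.0297), and only 2.22% of genes were lower. After TMM it was -0.28 (edgeR adjusted p = 0.000283). The sum over the peaks nearest to Mycl alone differed by 0.03, and 11 of the 17 peaks in the full sum are nearer to other genes. The limma-trend call was lost in 6 of 8 fits without 1 library, all but those without control replicate 1 and paused replicate 3 (adjusted p from 0.0523 to 0.101).

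The Mxi1 sum was 2402 to 2533 in control and 2207 to 2387 in paused libraries, without overlap. Its log2 difference was -0.09 ± 0.04 (SE, limma-trend adjusted p = 0.0747), lower than all but 3.44% of genes, and -0.23 after TMM (edgeR adjusted p = 0.000115). The sums of Mycn (0.14), Mnt (0.15), Mga (0.19), Mxd1 (0.15) and Mxd4 (0.20) also passed as higher with limma-trend, close to the median gene, and none of these passed after TMM. The Myc and Mga calls held without any 1 library. The others each missed in some such fits: Mycn without any but control replicate 4 and paused replicate 2, Mnt without control replicates 1 or 2 or paused replicates 3 or 4, Mxd1 without control replicates 1, 2 or 3 or paused replicates 2 or 3, and Mxd4 without control replicate 2 or paused replicates 3 or 4. Those of Max (0.08) and Mxd3 (0.12) did not pass, and Mxd3 passed without control replicate 2, paused replicate 1 or paused replicate 2 (adjusted p from 0.0174 to 0.0402).

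**Figure D5:**
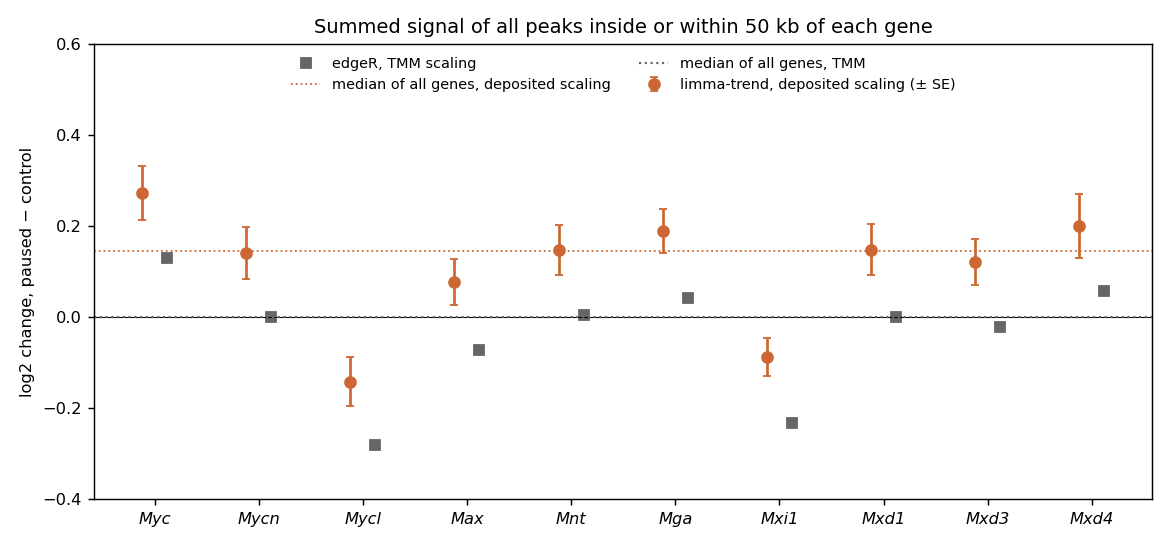
Log2 difference (paused minus control) of the summed values of each gene's peaks with its SE, beside the edgeR estimate after TMM rescaling, with the median of all genes under each scaling as a dotted line. Myc stands highest under both scalings, and Mycl and Mxi1 stand lowest.

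Other genes of the pathway were read from the same fit, over their peaks inside the gene or nearest to it. The single peaks named below were chosen after their values were seen, and not every called one is named. Of 310 tested peaks of 47 genes, 16 rose and 12 fell (9.03%), with a median of 0.01. Over all peaks 13.9% passed, 11% higher and 2.91% lower, with a median of 0.10, and the group counts below are to be read against these. Under edgeR after TMM the list had 11 higher and 26 lower, where 7.13% and 5.54% of all peaks passed, and with DESeq2 8 higher and 5 lower. The complex that Mga and Max form with Polycomb proteins had 4 higher and 4 lower of 56 peaks, and 3 and 7 with edgeR after TMM. Among the higher ones was a peak nearest Wdr5, a subunit that binds histone H3. This peak lay 36095 bp from Wdr5 and within 1 kb of another RefSeq start. It went from 52.5 ± 9.11 to 110 ± 27.9 (SD, n = 4 each; log2 difference 1.03, limma-trend adjusted p = 3.39e-05). A peak inside E2f6, the DNA-binding repressor of the complex, rose by 0.68 (limma-trend adjusted p = 0.000427). A pair of peaks nearest to E2f6 but outside it, 29381 and 14424 bp away, fell (-0.48 and -0.59). These 4 calls held with edgeR after TMM (0.86, 0.60, -0.60 and -0.59), and with DESeq2 all but the last did (adjusted p = 0.0940).

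A list of 5 corepressor genes (Sin3a, Sin3b, Hdac1, Hdac2 and Ncor1) had 3 higher of 44 peaks and none lower, as with edgeR after TMM. Of these, 2 lay inside Ncor1 (0.68 for each) and 1 lay 38102 bp from Hdac2 (0.80). The Hdac2 peak was weak, with means of 22.1 ± 7.79 in control and 38.8 ± 11.9 in paused libraries (SD, n = 4 each). Its call was lost after loess (adjusted p = 0.0550) and with DESeq2 (0.114), where the Ncor1 calls held. No peak of Sin3a or Sin3b itself was called with limma-trend. Genes for Myc protein turnover had 5 higher and 1 lower of 77 peaks, and 4 and 3 with edgeR after TMM. These included a peak inside Usp28, a deubiquitinase of Myc, which rose by 0.63 (limma-trend adjusted p = 0.000651). A peak inside Fbxw7, the ubiquitin ligase subunit that recognises Myc, rose by 0.74 (limma-trend adjusted p = 0.00243). The 1 lower peak of the group also belonged to Fbxw7, 45710 bp from the gene, and fell by as much (-0.74, limma-trend adjusted p = 0.00701). These Fbxw7 calls and that of Usp28 held with edgeR after TMM and with DESeq2. Other called peaks inside Fbxw7, at 84852985 (0.75) and 84889705 (0.53), also rose. The first of them was lost with DESeq2 (adjusted p = 0.123). The second was lost with edgeR after TMM (adjusted p = 0.121), after loess (0.174) and with DESeq2 (0.331). Myc cofactor genes had 1 higher and 1 lower of 44, and the Mlx branch of related dimers 1 higher of 20. These were 0 and 1, and 0 higher and 5 lower, with edgeR after TMM.

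Classic Myc target genes had 2 higher and 6 lower of 69 peaks, with a median of -0.10, against 11% higher and 2.91% lower of all peaks. Under edgeR after TMM there were 1 higher and 10 lower, with a median of -0.19, and with DESeq2 1 higher and 3 lower. At Ldha, lactate dehydrogenase, 3 peaks fell, with log2 differences of -1.61, -0.61 and -0.97. The first was weak, with means of 19.5 ± 2.84 in control and 5.92 ± 2.01 in paused libraries (SD, n = 4 each). In paused libraries 3 reads came to values of 3.46 to 4.73. The third was also weak, with means of 21.1 ± 7.51 and 10.2 ± 3.99. At Odc1, the first enzyme of polyamine synthesis, 2 fell, with -0.87 and -0.36. Nme1, a nucleoside diphosphate kinase gene, had 1 peak that rose from 55.8 ± 4.05 to 105 ± 8.57 (SD, n = 4 each; 0.90, limma-trend adjusted p = 3.04e-05) and 1 inside the gene that fell (-1.05). All these Ldha, Odc1 and Nme1 calls held with edgeR after TMM. With DESeq2 the third Ldha peak (adjusted p = 0.0948) and both Odc1 peaks (0.0627 and 0.0535) missed the threshold, and after loess the third Ldha peak did (0.0917).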

How the data were processed

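Per the labels' protocols, 50000 cells per sample went into ATAC-seq with paired reads of 150 bp. Bowtie2 2.4.1, MACS3 3.0.3, DiffBind 3.16.0, Trim Galore, FastQC and the build mm10 are named in the submitters' processing notes, without order or settings. The deposited per-sample signal of each peak is a whole read count divided by 1 factor per library. In every library 100% of values were whole multiples of 1 step (tolerance 0.006), so reads could be recovered. The deposited table also gives the authors' log2 concentration and fold and their p-values and FDR, from peaks shared by all libraries. Peak positions were set beside RefSeq GRCm38 gene spans, where 54.18% of 32851 start sites had a peak within 1 kb, against 17.64% after a shift of 50000 bp.

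The main test was limma-trend (limma 3.58.1, R 4.3.3) on log2(value + 1), 4 paused against 4 control samples without covariates, for the 127402 peaks whose mean value reached 10. Benjamini-Hochberg adjustment ran over all of them, and fold changes of weak peaks depend on the pseudocount. Gene sums were fitted in the same way. Alternatives were pseudocount 0.1, no filter, a mean value of at least 50, TMM or loess (span 0.3) scaling, edgeR 4.0.16 and DESeq2 1.42.0 on the recovered reads, a replicate block, each library left out, and other windows. Scripts were tested on simulated data. No 2 libraries of 1 group agreed within sampling noise (chi-square per degree of freedom of 1.09 or more). Counting limits cover counting error only.

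The members, gene lists and tests were chosen with earlier results of these data known. Peaks of the members were named by rule: per gene the start peak, the strongest, the called ones (at most 4, by smallest adjusted p) or else the one with the smallest p. Called peaks nearer another gene were limited to 2 per member. Peaks named because another fit called them, and single peaks of other pathway genes, were chosen after their values were seen. Exons, introns and the sequence of peaks were not analysed here, since no genome sequence was used.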

Additional observations from a re-analysis of the deposited data

Results flagged for a closer look

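Among 90 groups of 4 values at the named peaks and gene sums, 3 had 1 library far from the other 3 by Dixon's test at the 95% level, a result that chance gives in about 1 of 20 groups. At the Myc peak at 62010814, paused replicate 3 was highest at 220.33, where the other paused libraries held 188 to 192. The Mycn peak at 12943364 had paused replicate 4 highest at 289.38, with the others at 265 to 268. At the Mga start peak at 119897229, paused replicate 1 was lowest at 245.71, with the others at 279 to 282. The Myc and Mycn calls held without these libraries, and the Mga peak did not pass with or without it.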

How the results depend on the processing

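Of 764 values from alternatives over 45 peaks and gene sums, 593 kept their direction and side of the threshold, 106 lost the threshold, 34 gained it and 31 changed sign. The limits are depth, with weak peaks resting on a few reads, and scaling, whose cause was not tested. All-peak calls (17660) were 10910 at a mean value of at least 50, 10963 after loess, 5794 with DESeq2 and 11567 (without paused replicate 4) to 15806 without 1 library. Family calls (11: 7 higher, 4 lower) were 17 with edgeR after TMM (12 lower), 4 with DESeq2 (1 higher), 7 in a 20 kb window (3 higher), 23 with all peaks of the window (11 higher, 12 lower), 6 without peaks inside non-coding genes, an alternative chosen after seeing the data (1 lower), and 7 to 14 without 1 library (5 to 11 higher, 2 to 5 lower). Limma-trend after TMM gave 3 higher and 9 lower, loess 3 and 7, edgeR with the deposited factors 7 lower, and a mean value of at least 50 gave 1 lower. Start-peak calls (1) were 0 with limma-trend after TMM, loess or DESeq2 and 0 to 4 without 1 library. Gene sums called (10267) were 2045 with limma-trend after TMM, 2152 with edgeR after TMM, 1431 with DESeq2, 5950 within 10 kb and 5670 over nearest peaks. Member sums called (7) were 2 in each of the first 3 and 3 to 6 without 1 library. Pathway calls (28) were 13 with DESeq2, an alternative chosen after seeing the data. Of all-peak calls 79% were higher, against 56.3% with edgeR after TMM, 57.4% with limma-trend after TMM, 59% after loess, 67.3% with DESeq2 and 93.1% at a mean value of at least 50.

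Signs changed as follows. After loess the start peaks of Max (-0.0104), Mga (-0.0987) and Mycl (-0.0197) were below 0. With limma-trend after TMM, loess, edgeR after TMM and DESeq2, the Mxi1 peak 53310366 gave -0.0774, -0.175, -0.0592 and -0.0627, the Mxi1 peak 53314193 gave -0.0848, -0.184, -0.0914 and -0.0909, and the Mycn peak 12927205 gave -0.0303, -0.129, -0.0144 and -0.0151. Without 1 library, 53310366 ranged from -0.0130 (paused replicate 1; -0.00114 without control replicate 1) to 0.0826, and 53314193 from -0.0643 (control replicate 3; -0.0295 without paused replicate 4) to 0.0743. With limma-trend after TMM, edgeR and DESeq2, the sums were -0.00561, -0.000428 and -0.00255 for Mycn, -0.0691, -0.0737 and -0.0744 for Max, and -0.0252, -0.0215 and -0.0236 for Mxd3. DESeq2 gave -0.00080 for Mxd1. The Mycl sum was 0.116 within 10 kb and 0.0302 over nearest peaks.

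Control and paused samples share replicate numbers. Deviations of same-numbered samples correlated by 0.079, 0.036, 0.133 and 0.039, all above 0. Control replicates 1, 3 and 4 each correlated best with the paused replicate of their own number, and control replicate 2 with paused replicate 1 (0.070). The correlations were not over 0.1 in every pair, so the numbers were not taken as pairs. The labels do not say whether a number marks a shared batch. With the replicate block, 21994 peaks, 20 family peaks (16 higher, 4 lower), 5 start peaks, 12428 gene sums and 9 member sums passed.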
